A study of Homo sapiens with 24 samples.

Results

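Transcripts of 10 matrix proteoglycan genes (*BGN*, *DCN*, *ASPN*, *LUM*, *FMOD*, *PRELP*, *OGN*, *VCAN*, *HSPG2* and *AGRN*) were followed across 24 RNA-seq samples of human fibroblasts, out of 25702 gene identifiers counted. The genes were taken by symbol, as a family of secreted core proteins, and the family was chosen by the measured values of *BGN*, lower with the hairpin in earlier results of these data, and of *VCAN*, lower with RAS. The question was whether the others share either pattern. The values of *BGN* under the hairpin and of *VCAN* under RAS are therefore given as a description, with no test. All 10 genes were found in the count data; 7 passed the low-count filter and were tested, and *PRELP*, *OGN* and *ASPN* did not pass it.

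A proteoglycan is a core protein that carries long, negatively charged sugar chains (glycosaminoglycans). The small leucine-rich proteoglycans bind collagen fibrils and tune their assembly, versican swells the loose matrix by binding hyaluronan, and perlecan and agrin are heparan sulfate proteoglycans of basement membranes. Fibroblasts are the main source of the small leucine-rich proteoglycans and of versican in connective tissue.

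The cells were IMR90, human diploid fibroblasts from lung. In all 4 groups they carried a retroviral ER:HRAS(G12V) construct, an oncogenic RAS fused to the oestrogen receptor that is switched on by 4-hydroxytamoxifen (4OHT). Growing cells carried the empty MSCV vector and received no agent (6 samples). The shHMGA1 group carried an MSCV miR30 vector with a hairpin against *HMGA1*, which encodes an architectural chromatin protein, and received no agent (6 samples). RAS-induced senescent cells (RIS) carried the empty vector and were treated with 4OHT for 6 days (6 samples), and RIS+shHMGA1 cells carried the hairpin and had the same treatment (6 samples). All samples are labelled with the same passage range, 23 to 28, and as biological replicates; 1 hairpin construct was used, cells were infected and not cloned as far as the labels say, and 4OHT and senescence come together in this design and cannot be told apart.

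Total counts per sample ranged from 8698070 to 23103424. *HMGA1* lay between 639 and 861 CPM (counts scaled to the TMM-normalised library size) in the 12 samples with the vector and between 54.4 and 262 CPM in the 12 with the hairpin. In shHMGA1 it was at 58.1 and 54.4 CPM in replicates 5 and 6, against 98.7 to 143 CPM in replicates 1 to 4. In RIS+shHMGA1 it was at 60.0 and 75.1 CPM in replicates 5 and 6, against 197 to 262 CPM in replicates 1 to 4. Fibroblast markers were present in every sample (*VIM* at 3173 CPM or more, *COL1A1* at 428 CPM or more), and 9 of 10 markers of epithelial, endothelial, immune and neural cells stayed at or below 1.27 CPM in every sample; the exception, *CD68*, which also marks lysosomes, ranged from 40.2 to 105 CPM. Growing replicate 4 and RIS replicate 2 stood apart from their groups. Across all genes tested, the first principal component (73.9% of the variance) placed growing replicate 4 at 77.3 and the other growing samples between −84.3 and −57.2, and it placed RIS replicate 2 at −77.1 and the other RIS samples between 16.8 and 62.1. The summed level of 8 cell cycle genes was 112 CPM in growing replicate 4 (575 to 893 CPM in the other growing samples) and 704 CPM in RIS replicate 2 (81.5 to 117 CPM in the other RIS samples). That of 8 inflammatory secretion genes was 172119 CPM in growing replicate 4, against 6112 to 13548 CPM in the other growing samples. In RIS replicate 2 it was 8396 CPM, against 61944 to 140973 CPM in the other RIS samples. By these measures growing replicate 4 lay nearer the other RIS samples, and RIS replicate 2 nearer the other growing samples. Both libraries were kept in their labelled groups, and results that rest on them are given with and without them; why they stand apart was not tested. Samples 5 and 6 of both groups with 4OHT also lay apart from samples 1 to 4 on that component, at 16.8 and 22.2 against 55.96 to 62.1 in RIS (replicate 2 aside) and at 52.5 and 58.2 against 78.5 to 84.1 in RIS+shHMGA1.

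A gene was called where its adjusted p was below 0.01 and its log2 fold change exceeded 0.58 in size, in edgeR's quasi-likelihood test over 13356 genes in all 24 samples. In bulk samples, fewer cells that express a gene and less RNA per cell cannot be told apart.

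**Figure D1:**
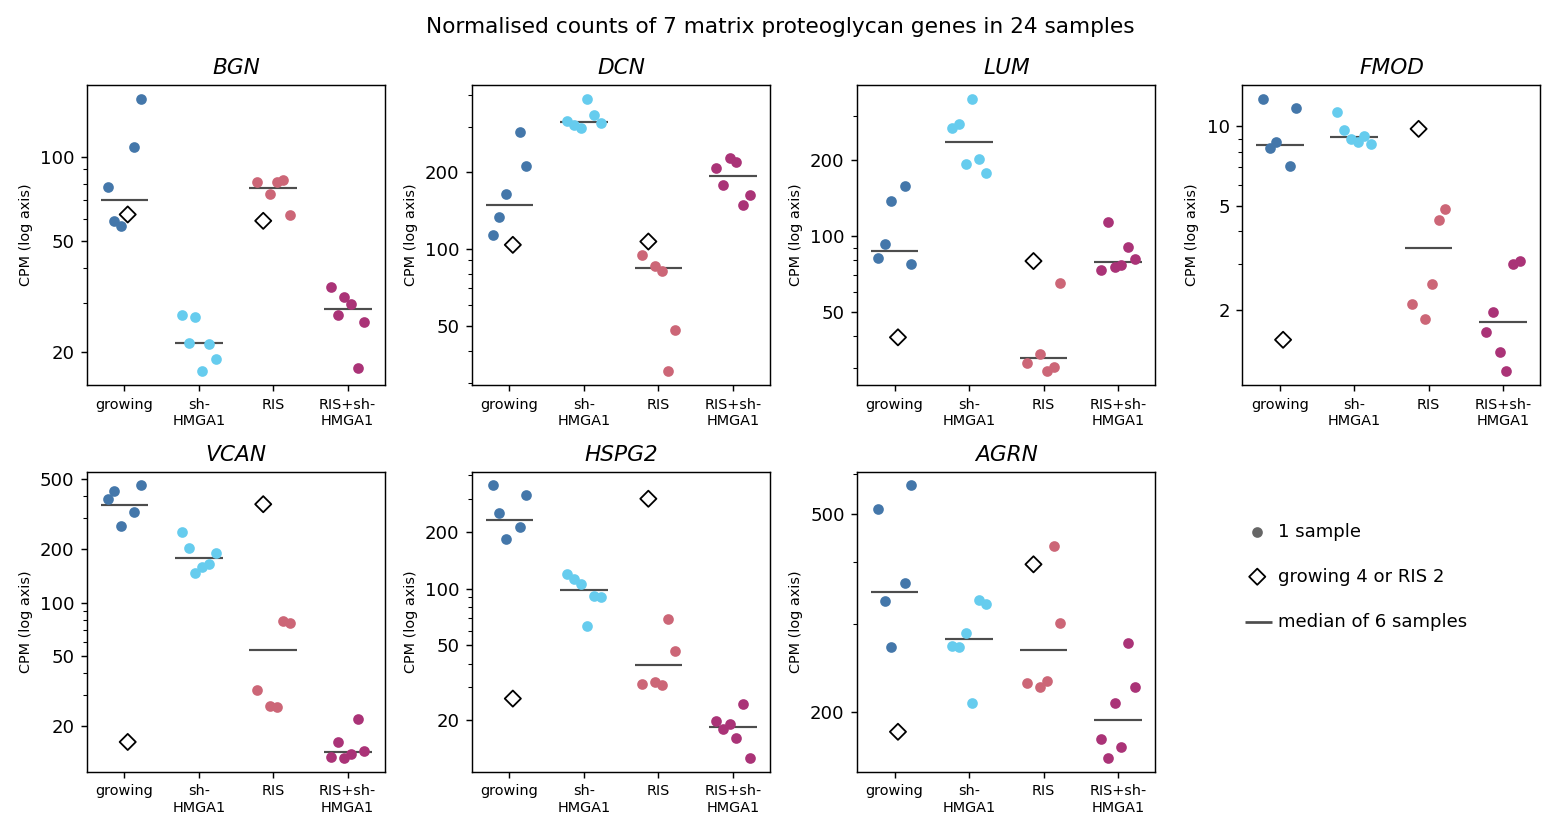
Normalised counts (CPM, log axis) of the 7 tested proteoglycan genes, each point 1 sample and each line the median of 6 samples; open diamonds are growing replicate 4 and RIS replicate 2. The 12 hairpin samples lie below the 12 vector samples for *BGN* (17.1 to 34.3 against 56.7 to 161 CPM), while *DCN* is highest in the shHMGA1 group (295 to 386 CPM).

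*BGN*, *DCN* and *ASPN* encode the class I small leucine-rich proteoglycans biglycan, decorin and asporin. Biglycan is a close relative of decorin that carries chondroitin or dermatan sulfate chains and is also a ligand of innate immune receptors. *BGN* (chromosome X, 152760438 to 152775004, plus strand, GRCh37, 8 exons in its canonical transcript) was measured at 56.7, 70.1 and 161 CPM (lowest, median and highest of 6) in growing cells and at 59.0, 77.5 and 82.2 CPM in RIS. In shHMGA1 it was measured at 17.1, 21.6 and 27.1 CPM and in RIS+shHMGA1 at 17.7, 28.5 and 34.3 CPM. The 12 hairpin samples were thus all below the 12 vector samples, and within vector or hairpin cells the groups with and without 4OHT overlapped.

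The log2 fold change of *BGN* was −1.98 (SE 0.22) for shHMGA1 against growing and −1.40 (SE 0.22) for RIS+shHMGA1 against RIS; these are the values that set the question. They were −2.06 and −1.46 without growing replicate 4 and RIS replicate 2. The interaction, which is the hairpin difference with 4OHT minus that without, was 0.58 (SE 0.31) and comes from the same values. Its level under RAS was not part of the choice: −0.26 (SE 0.21, adjusted p = 0.41) for RIS against growing and 0.32 (SE 0.22, adjusted p = 0.20) for RIS+shHMGA1 against shHMGA1. The first of these rests on growing replicates 5 and 6, at 108 and 161 CPM against 56.7 to 78.1 CPM in the other 4, and turned to 0.21 when replicate numbers 5 and 6 were left out.

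Of the 13356 genes tested, 16 (0.12%) separated the hairpin samples from the vector samples completely, 8 of them (0.0599%) lower and 8 (0.0599%) higher with the hairpin. *BGN* is 1 of the 8 lower genes, and since it was chosen for this difference, nothing about *BGN* is read from that share.

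Decorin binds fibrillar collagen and sequesters growth factors, TGF-β among them. *DCN* (chromosome 12, 91534261 to 91576994, minus strand, 8 exons) was measured at 104, 148 and 286 CPM (lowest, median, highest) in growing and at 295, 313 and 386 CPM in shHMGA1. With 4OHT it was measured at 33.2, 83.8 and 107 CPM in RIS and at 148, 192 and 226 CPM in RIS+shHMGA1. Every shHMGA1 sample was above every growing sample, and every RIS+shHMGA1 sample was above every RIS sample, the opposite order to *BGN*. The groups fell in the order shHMGA1, RIS+shHMGA1, growing and RIS, with the middle neighbours overlapping and growing and RIS overlapping between 104 and 107 CPM, where growing replicate 4 and RIS replicate 2 lie.

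*DCN* rose in RIS+shHMGA1 against RIS, by 1.34 on the log2 scale (SE 0.25, adjusted p = 0.0033). In shHMGA1 against growing it was higher by 0.94 (SE 0.25), which did not pass the test (adjusted p = 0.077), nor without the libraries that stand apart (0.84, adjusted p = 0.018); it passed without replicate numbers 5 and 6 (1.36, adjusted p = 0.0015) and without these and both libraries (1.26, adjusted p = 6.4e-06). Under RAS *DCN* fell by 0.77 in hairpin cells (SE 0.25, adjusted p = 0.0098). That call was lost with RLE normalisation (adjusted p = 0.012), without the low-count filter (adjusted p = 0.011) and with the replicate number as a block (−0.78). It was also lost without replicate numbers 5 and 6 (−0.68, adjusted p = 0.014). For RIS against growing the value was −1.17 (SE 0.25, adjusted p = 0.014, not called), and it was called without growing replicate 4 (−1.27, adjusted p = 0.00037), without RIS replicate 2 (−1.30, adjusted p = 0.00045) and without both (−1.40, SE 0.24, adjusted p = 2.27e-05). The size depends on replicates 5 and 6 of both groups. Those of RIS were its lowest (33.2 and 48.0 CPM) and those of growing its highest (286 and 211 CPM). With replicate numbers 5 and 6 also left out the log2 fold change was −0.64 (adjusted p = 0.00052).

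*ASPN* (chromosome 9, 95218487 to 95244788, minus strand) was barely counted, with 4 counts in total, 1 in each of 4 samples. At these depths a limit of 3 counts corresponds to 0.130 to 0.345 CPM per library, which is the level that a count of 0 still allows; this limit covers counting error only.

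The class II members lumican, fibromodulin and PRELP carry keratan sulfate or, for PRELP, a basic heparin-binding end. *LUM* encodes lumican, which spaces collagen fibrils and lies next to *DCN*, 29.0 kb away (chromosome 12, 91496406 to 91505271, minus strand, 3 exons). It was measured at 39.6, 87.0 and 158 CPM in growing, and at 178, 236 and 351 CPM in shHMGA1. With 4OHT it was measured at 29.0, 32.7 and 79.5 CPM in RIS and at 73.6, 78.9 and 114 CPM in RIS+shHMGA1. *LUM* was thus highest in shHMGA1, with no overlap with any other group, and growing and RIS+shHMGA1 samples overlapped.

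Like *DCN*, *LUM* was higher with the hairpin in both backgrounds. The log2 fold change was 1.32 (SE 0.29, adjusted p = 0.026) in shHMGA1 against growing and 0.92 (SE 0.29, adjusted p = 0.023) in RIS+shHMGA1 against RIS, neither of which passed the test with all samples, though both passed in DESeq2 (adjusted p = 0.0010 and 0.0082). Without the libraries that stand apart *LUM* rose in both, by 1.16 (adjusted p = 0.0022) and by 1.17 (adjusted p = 0.0013). In hairpin cells, where neither of those libraries is in the comparison, *LUM* fell with RAS (−1.53, SE 0.29, adjusted p = 0.00036). In vector cells the value was −1.13 (SE 0.29, adjusted p = 0.019, not called) with all samples and −1.53 (SE 0.24, adjusted p = 6.2e-06) without both libraries.

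**Figure D2:**
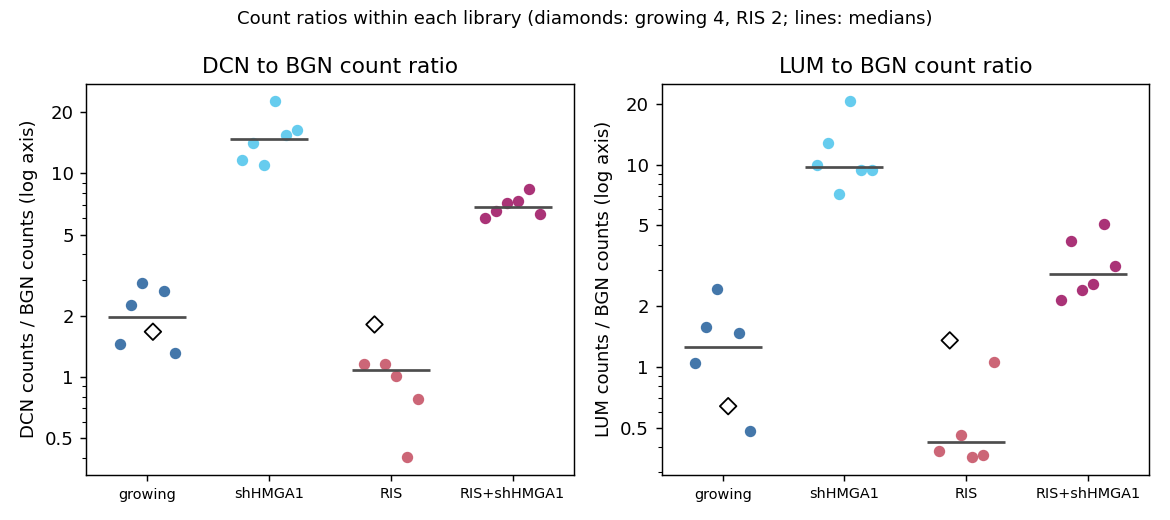
Ratio of *DCN* counts (left) and *LUM* counts (right) to *BGN* counts within each library, on log axes, with the median of 6 samples as a line and growing replicate 4 and RIS replicate 2 as open diamonds. The *DCN* to *BGN* ratio is 11.0 to 22.6 in shHMGA1 and 6.04 to 8.36 in RIS+shHMGA1, above all 12 vector samples (0.404 to 2.89).

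Since biglycan and decorin are close relatives with opposite shifts, their counts were set against each other within each library, where library size cancels out. The ratio of *DCN* to *BGN* counts had a median of 1.96 in growing (1.31 to 2.89) and 1.08 in RIS (0.404 to 1.81), but 14.8 in shHMGA1 (11.0 to 22.6) and 6.87 in RIS+shHMGA1 (6.04 to 8.36). For *LUM* to *BGN* counts the median was 1.26 in growing (0.482 to 2.43) and 0.423 in RIS (0.357 to 1.35), but 9.68 in shHMGA1 (7.18 to 20.5) and 2.86 in RIS+shHMGA1 (2.15 to 5.11). Growing replicate 4 and RIS replicate 2 lay inside the range of the vector samples for both ratios. *BGN* chose the comparison, so these ratios are a description. The median *DCN* to *LUM* count ratio lay between 1.36 in shHMGA1 and 2.40 in RIS+shHMGA1, and single RIS samples ranged from 0.738 to 3.02. These ratios are not corrected for transcript length, so they do not tell which of the genes had the higher level.

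Fibromodulin, a collagen-binding relative of lumican, is encoded by *FMOD* (chromosome 1, 203309756 to 203320886, minus strand, 3 exons). It was measured at 1.54, 8.49 and 12.8 CPM in growing and at 8.58, 9.09 and 11.4 CPM in shHMGA1. With 4OHT it was measured at 1.84, 3.45 and 9.79 CPM in RIS and at 1.17, 1.81 and 3.08 CPM in RIS+shHMGA1. The lowest growing value was replicate 4 and the highest RIS value replicate 2; the other 5 growing samples (7.05 to 12.8 CPM) did not overlap the other 5 RIS samples (1.84 to 4.84 CPM). *FMOD* rested on 8 to 322 counts per sample, the fewest of the tested members.

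*FMOD* fell with RAS in hairpin cells (log2 fold change −2.18, SE 0.40, adjusted p = 0.00030), where none of the samples overlapped. In vector cells the difference was −0.99 (SE 0.37, adjusted p = 0.073) with all samples and −1.63 (SE 0.24, adjusted p = 3.9e-06) without both libraries. The hairpin gave no call: 0.16 (SE 0.36, adjusted p = 0.90) in shHMGA1 against growing, or −0.05 (SE 0.21) without both libraries, and −1.04 (SE 0.41, adjusted p = 0.050) in RIS+shHMGA1 against RIS, or −0.60 (SE 0.27, adjusted p = 0.082) without them. *FMOD* therefore did not show the higher level in shHMGA1 that its class II relative *LUM* did.

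*PRELP*, 124.0 kb from *FMOD* (chromosome 1, 203444934 to 203460480, plus strand), had 129 counts in all 24 samples and never reached 1 CPM. Its median was 0.730 CPM in growing and 0.456 CPM in shHMGA1, and with 4OHT it was 0.319 CPM (RIS) and 0.163 CPM (RIS+shHMGA1). In the fit without a low-count filter the fold change of RIS+shHMGA1 against shHMGA1 was −1.48 (SE 0.50, adjusted p = 0.019, not called). The class III member *OGN*, which encodes osteoglycin (mimecan), lies 51.5 kb from *ASPN* (chromosome 9, 95145550 to 95166978, minus strand), and it had 6 counts in 5 samples. All these counts were in samples without 4OHT, and the 12 samples with 4OHT were at 0.

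*VCAN* encodes versican, the large hyaluronan-binding chondroitin sulfate proteoglycan of loose and provisional matrix (chromosome 5, 82767437 to 82878122, plus strand, 15 exons). It was measured at 16.2, 357 and 462 CPM in growing and at 147, 179 and 250 CPM in shHMGA1. With 4OHT it was measured at 25.6, 54.2 and 361 CPM in RIS and at 13.1, 14.1 and 22.0 CPM in RIS+shHMGA1. The lowest growing value was replicate 4 (the other 5 lay between 273 and 462 CPM) and the highest RIS value was replicate 2 (the other 5 lay between 25.6 and 78.2 CPM). Without these libraries the 4 groups did not overlap at any step of the order growing, shHMGA1, RIS and RIS+shHMGA1.

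The RAS differences of *VCAN*, which set the question, were −3.59 (SE 0.64) in hairpin cells and −1.66 (SE 0.58) in vector cells, or −2.98 (SE 0.28) in vector cells without both libraries. The interaction was −1.93 (SE 0.82), and −0.61 (SE 0.36) without them. The hairpin was not used to choose it. In RIS+shHMGA1 against RIS, *VCAN* fell by 2.69 (SE 0.61, adjusted p = 0.0090). That call was lost without RIS replicate 2 (−1.62, SE 0.47, adjusted p = 0.031), without replicate numbers 5 and 6 (−2.99, adjusted p = 0.080), without the low-count filter (adjusted p = 0.011) and in a fit of those 12 samples only (adjusted p = 0.011), and held without both libraries (−1.62, SE 0.26, adjusted p = 0.00044). In shHMGA1 against growing the value was −0.76 (SE 0.57, adjusted p = 0.61) with all samples and −1.01 (SE 0.24) without both libraries, where an adjusted p of 0.0103 missed the threshold. It was called without both libraries and replicate numbers 5 and 6 (−0.92). Without both libraries it was also called with the replicate number as a block (−0.92).

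*HSPG2* encodes perlecan, a large heparan sulfate proteoglycan that links laminin, nidogen and collagen IV networks (chromosome 1, 22148737 to 22263803, minus strand, 97 exons). It was measured at 26.1, 232 and 354 CPM in growing and at 63.4, 98.7 and 120 CPM in shHMGA1. With 4OHT it was measured at 30.6, 39.2 and 301 CPM in RIS and at 12.6, 18.5 and 24.4 CPM in RIS+shHMGA1. Growing replicate 4 (26.1 CPM) and RIS replicate 2 (301 CPM) were again the extremes, against 184 to 354 CPM and 30.6 to 69.2 CPM in the other samples of their groups. Without them the order of the groups was that of *VCAN*, with an overlap of shHMGA1 and RIS between 63.4 and 69.2 CPM.

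*HSPG2* fell with RAS in hairpin cells (−2.41, SE 0.54, adjusted p = 0.0010). In vector cells the value was −1.40 (SE 0.51, adjusted p = 0.065) with all samples and −2.65 (SE 0.23, adjusted p = 8.0e-10) without both libraries. The hairpin differences were −1.20 (SE 0.51, adjusted p = 0.30) without 4OHT and −2.21 (SE 0.53, adjusted p = 0.011) with it, neither called with all samples, though the second was called in DESeq2 (−2.19, adjusted p = 0.00051) and without growing replicate 4 (−2.21, adjusted p = 0.0015). Without the libraries that stand apart both were called, at −1.44 (SE 0.21, adjusted p = 0.00013) and −1.19 (SE 0.22, adjusted p = 0.00098). *LDLRAD2* overlaps *HSPG2* in the genome and was measured at 2.71 to 58.7 CPM, with a log2 fold change of −2.08 in RIS+shHMGA1 against shHMGA1; whether counting used the strand is not given in the sources used here, so how reads in the overlap were assigned cannot be told. *HAUS7*, which overlaps *BGN*, was at 3.71 to 12.1 CPM.

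Agrin, encoded by *AGRN*, is a heparan sulfate proteoglycan of basement membranes best known for clustering acetylcholine receptors at the neuromuscular junction (chromosome 1, 955500 to 991498, plus strand, 36 exons). It was measured at 183, 349 and 570 CPM in growing and at 209, 280 and 336 CPM in shHMGA1. With 4OHT it was measured at 225, 267 and 430 CPM in RIS and at 162, 193 and 276 CPM in RIS+shHMGA1. All neighbouring groups overlapped. The log2 fold changes were −0.30 (SE 0.23, adjusted p = 0.36) for RIS against growing, −0.39 (SE 0.23, adjusted p = 0.49) for shHMGA1 against growing, −0.57 (SE 0.23, adjusted p = 0.053) for RIS+shHMGA1 against RIS and −0.48 (SE 0.23, adjusted p = 0.068) for RIS+shHMGA1 against shHMGA1. None passed the test with all samples or without both libraries; without both libraries and replicate numbers 5 and 6, RIS against growing did (−0.70, adjusted p = 0.0015).

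**Figure D3:**
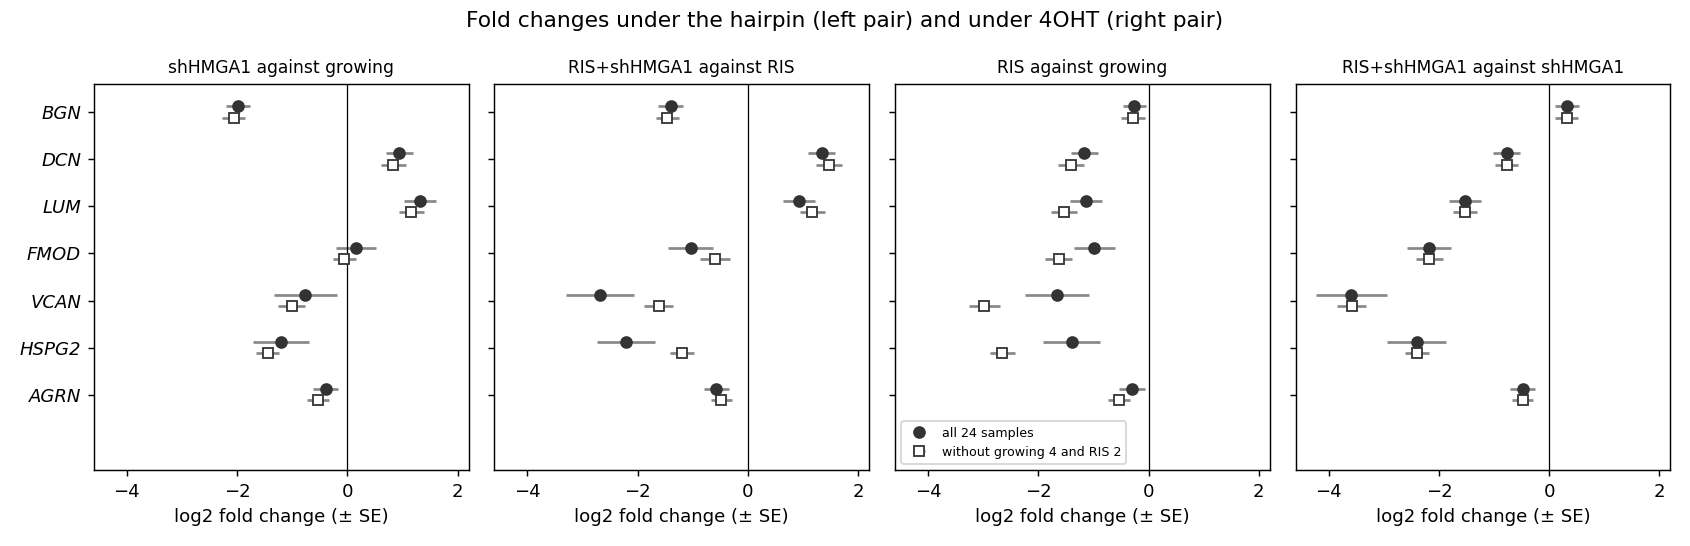
Log2 fold change (± SE) of the 7 tested genes under the hairpin (left pair of panels) and under 4OHT (right pair), with all 24 samples (filled) and without growing replicate 4 and RIS replicate 2 (open squares). *BGN* lies below 0 and *DCN* and *LUM* lie above 0 under the hairpin, and *VCAN* (−3.59) is the lowest of the 7 for RIS+shHMGA1 against shHMGA1.

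Set beside each other, no other tested member was called lower with the hairpin in both backgrounds with all samples. Without both libraries *HSPG2* was, and *VCAN* was with 4OHT but missed the threshold without it (adjusted p = 0.0103). Within vector cells and within hairpin cells, their groups with and without 4OHT then did not overlap. With replicate numbers 5 and 6 also left out, *VCAN* passed the threshold without 4OHT too (−0.92). *AGRN* was lower by value in both (−0.39 and −0.57), with overlapping groups under RAS, but was called in neither. *DCN* and *LUM* were higher by value in both. In hairpin cells, 5 of the 7 tested members fell with RAS (*DCN*, *LUM*, *FMOD*, *VCAN* and *HSPG2*) and 0 rose, where 39.1% of all genes tested were called in either direction and 19.5% were lower. Without replicate numbers 5 and 6 none of these calls was left, nor that of any other gene (8380 genes had an unadjusted p under 0.05), and without these and both libraries that stand apart there were 5 again. Leaving out only both libraries, which enter this comparison through the shared estimate of the spread, gave the same 5 (44.4% of all genes called, 21.9% lower). The same 5 had no overlap between these groups, against 22.5% of all genes tested that were lower without overlap. Without both libraries they also had none in RIS against growing, against 19.3% of all genes tested. In RIS against growing, 0 of 7 were called and 0 of all 13356 genes (0%), although 4407 genes had an unadjusted p under 0.05 and DESeq2 called 829 genes, *DCN* and *LUM* among them; without both libraries the same 5 members fell, where 39.7% of 13416 genes were called and 20.5% were lower. These calls include *VCAN*, whose direction was known beforehand. Whether the members fell more often than other genes was not tested, and nothing particular to proteoglycans is read from these counts.

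Under the hairpin without 4OHT, 1 of 7 was called (*BGN*, which set the question), where 0.27% of all genes tested were called (0.135% lower and 0.135% higher). Without both libraries 3 of 7 were called, *BGN* and *HSPG2* lower and *LUM* higher, where 2.59% of all genes were called (1.39% lower and 1.21% higher). With 4OHT, 3 of 7 were called, *BGN* (which set the question) and *VCAN* lower and *DCN* higher, where 2.55% were called (0.786% lower and 1.77% higher); without both libraries *BGN*, *VCAN* and *HSPG2* were lower and *DCN* and *LUM* higher, where 12.5% were called (2.5% lower and 10% higher). Groups with and without the hairpin did not overlap for *BGN* (lower), *DCN* and *LUM* (higher) without 4OHT, against 0.554% of all genes tested lower and 0.749% higher, and without both libraries *VCAN* and *HSPG2* were added (lower), against 3.62% lower and 3.24% higher. With 4OHT they did not overlap for *BGN*, *VCAN* and *HSPG2* (lower) and *DCN* (higher), against 5.23% lower and 8% higher, and without both libraries *LUM* was added (higher), against 6.24% lower and 8.62% higher. The median log2 fold change of the 7 tested members was −1.13 in RIS against growing, −0.39 in shHMGA1 against growing, −1.04 in RIS+shHMGA1 against RIS and −1.53 in RIS+shHMGA1 against shHMGA1, and that of all genes tested lay between −0.06 and −0.01. Without both libraries the members' medians were −1.53, −0.53, −0.60 and −1.52 in the same order. All these medians include *BGN* and *VCAN*, whose hairpin and RAS values chose the family, so they are a description. The interaction gave 0 calls among the 7 members and 0 among all genes (0%), with 1371 genes at an unadjusted p under 0.05 and 3 called by DESeq2. Without both libraries it again gave 0 calls among the members, and 1 among all genes (0.00745%). For the members other than *BGN* and *VCAN* the adjusted p of the interaction lay between 0.43 (*FMOD*) and 0.75 (*AGRN*). The comparisons share groups: RIS+shHMGA1 and shHMGA1 samples each enter 2 of them, as do RIS and growing samples.

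Levels can be compared between genes only per length, for which CPM was divided by the length of the canonical transcript in kb. In growing cells the order was *AGRN* (50.8 ± 19.9 CPM per kb, SD, n = 6), *BGN* (37.2 ± 17.3), *LUM* (36.7 ± 16.2), *VCAN* (25.6 ± 13.1), *DCN* (24.6 ± 10.2), *HSPG2* (15.6 ± 8.06) and *FMOD* (2.84 ± 1.35), and neighbours in this order differed by less than their spread except *FMOD*. In shHMGA1, *LUM* led at 91.8 ± 24.8 CPM per kb (SD, n = 6), before *DCN* at 47.3 ± 4.78, *AGRN* at 38.8 ± 6.32, *VCAN* at 15.1 ± 3.05 and *BGN* at 9.42 ± 1.73. In RIS, *AGRN* led at 41.3 ± 12.4, before *BGN* at 31.1 ± 4.44. In RIS+shHMGA1, *LUM* (31.9 ± 5.67), *AGRN* (27.7 ± 5.88) and *DCN* (27.7 ± 4.67) differed by less than their spread, and *VCAN* and *HSPG2* were at 1.25 ± 0.272 and 1.28 ± 0.275. Without growing replicate 4 and RIS replicate 2, *LUM* (41.1 ± 13.6, SD, n = 5) and *BGN* (39.3 ± 18.4) changed places in growing cells, with a difference still within their spread, *AGRN* (38.7 ± 12.01) and *BGN* (32.3 ± 3.69) kept theirs in RIS, and *VCAN* was at 30.4 ± 6.17 in growing and 3.86 ± 2.21 in RIS. The levels per length, and the order of the genes, depend on the length taken. Over the union of annotated exons *DCN* was at 13.0 CPM per kb in growing and 25.0 in shHMGA1. By that length *AGRN* no longer led in growing (34.6, against 36.7 for *LUM* and 36.4 for *BGN*) or in RIS (28.1, against 30.5 for *BGN*). In RIS+shHMGA1 *LUM* was then at 31.9, *AGRN* at 18.9 and *DCN* at 14.7.

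**Figure D4:**
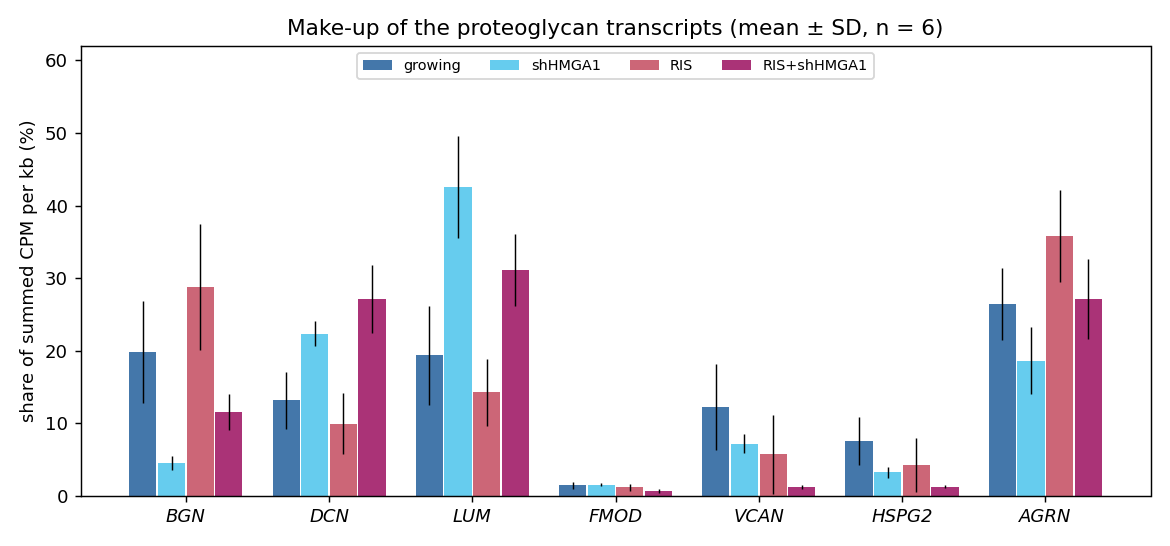
Share of each gene in the summed CPM per kb of the 10 proteoglycan genes (mean ± SD, n = 6 samples per group; *PRELP*, *OGN* and *ASPN* are in the sum but too low to draw). *BGN* took 19.8% in growing and 4.49% in shHMGA1, and *LUM* 19.4% and 42.6%. Lengths are those of the canonical transcripts.

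As a share of the summed CPM per kb of the 10 genes, *BGN* took 19.8% ± 7.01 (SD, n = 6) in growing, 28.8% ± 8.69 in RIS, 4.49% ± 1.02 in shHMGA1 and 11.5% ± 2.54 in RIS+shHMGA1. *DCN* and *LUM* took 13.2% ± 3.91 and 19.4% ± 6.84 in growing, and 22.3% ± 1.75 and 42.6% ± 7.04 in shHMGA1. In RIS+shHMGA1 they took 27.1% ± 4.73 and 31.1% ± 4.95, with *AGRN* at 27.1% ± 5.51. *VCAN* took 12.2% ± 5.92 in growing and 1.22% ± 0.245 in RIS+shHMGA1. *PRELP*, *OGN* and *ASPN* each stayed below 0.1% in every sample (at most 0.0820%, 0.0225% and 0.0440%). Without both libraries *BGN* took 17.6% ± 4.85 (SD, n = 5) in growing and 31.7% ± 5.41 in RIS, *LUM* 19.8% ± 7.57 and 13.8% ± 4.97, and *VCAN* 14.3% ± 3.11 and 3.59% ± 1.67. Shares of 1 sum are not independent of each other. These shares use the canonical lengths and depend on them. Over the union of exons, *DCN*, *LUM* and *AGRN* took 18.5%, 39.8% and 23.7% in RIS+shHMGA1, and *DCN* and *LUM* took 14.5% and 52.1% in shHMGA1. In RIS, *BGN* then took 34.6% and *AGRN* 29.9%, against 28.8% and 35.8% by canonical length.

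Likeness between members was measured as the root mean square difference of log2 CPM over the 24 samples, after each gene was centred on its own mean. The closest pairs were *VCAN* with *HSPG2* (0.56) and *DCN* with *LUM* (0.56), and the farthest was *VCAN* with *BGN* (1.90). Among 10935 tested genes the closest to *BGN* were *PODXL* (0.43), *LTBP2* (0.47) and *NPTXR* (0.50). *VCAN* was closest to *COL1A1* (0.24), an identifier without a symbol (0.29) and *COL1A2* (0.29), which encodes the second chain of collagen I, and *HSPG2* to *DSP* (0.31), *NOTCH3* (0.35) and *COL5A1* (0.36). *DCN* was closest to *MAD2L1* (0.38), *ITGB3BP* (0.39) and *PARPBP* (0.39), *LUM* to *HSD17B2* (0.36), *HSD17B11* (0.39) and *CCDC68* (0.41), *FMOD* to *LHFPL6* (0.21), *GPR37* (0.22) and *DKK3* (0.23), and *AGRN* to *COL6A1* (0.11), *BRPF1* (0.12) and *PPRC1* (0.12). Without both libraries the closest pairs were the same (0.54 and 0.57), the farthest was *VCAN* with *DCN* (1.85), and 2 or 3 of the 3 closest genes of each member remained. Small values are easier to reach for a gene that varies little, such as *AGRN*, whose own SD over the samples was 0.48 against 1.88 for *VCAN*.

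Other genes that build, modify, cut and bind proteoglycans were counted in the same fit. In RIS+shHMGA1 against shHMGA1, the comparison without libraries that stand apart, 14 of 21 tested other core proteins fell and 1 rose. Of all genes tested 39.1% were called here, 19.5% lower, and the counts of these lists are to be read beside those shares. *COL15A1* and *COL18A1*, basement membrane collagens that carry sugar chains, fell (−5.74, SE 1.08, and −1.56, SE 0.31), and *ESM1*, an endothelial dermatan sulfate proteoglycan, rose by 1.63 (SE 0.41). Of 15 tested basement membrane partners and receptors, to which perlecan and agrin bind, 11 fell and 1 rose; *COL4A1* (a chain of collagen IV) was at −2.43 (SE 0.54), *NID1* (nidogen) at −2.42 (SE 0.43) and *NID2* at −2.21 (SE 0.32). The median log2 fold changes of these lists were −0.99 and −1.53, against −0.02 over all genes tested.

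Genes that build and sulfate the chains were counted in the same comparison, where 39.1% of all genes tested were called and 19.5% were lower. Of 24 tested genes of linker and chain synthesis, 5 fell and 0 rose: *XYLT1*, which adds the first sugar to the core protein, was at −1.53 (SE 0.38), *CSGALNACT1*, which starts chondroitin sulfate chains, at −1.48 (SE 0.31) and *CHSY1*, which extends them, at −0.89 (SE 0.22). Of 20 tested genes of sulfation and epimerisation, 5 fell and 4 rose, with the sulfotransferase *CHST2* at 3.75 (SE 0.67), the endosulfatase *SULF1* at −3.16 (SE 0.67) and the heparan sulfate sulfotransferase *HS6ST1* at −2.55 (SE 0.47). Of 8 tested genes of core protein and chain cleavage, 4 fell and 2 rose; *BMP1*, the procollagen proteinase that also trims biglycan, was at −1.93 (SE 0.34), *ADAMTS1*, a versican-cleaving protease, at −1.87 (SE 0.39) and *PRSS12*, a secreted protease that cuts agrin, at −2.71 (SE 0.60). The adjusted p of these named genes lay at or below 0.0023. Median log2 fold changes were −0.34, −0.19 and −0.92 in the order of these 3 lists.

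**Figure D5:**
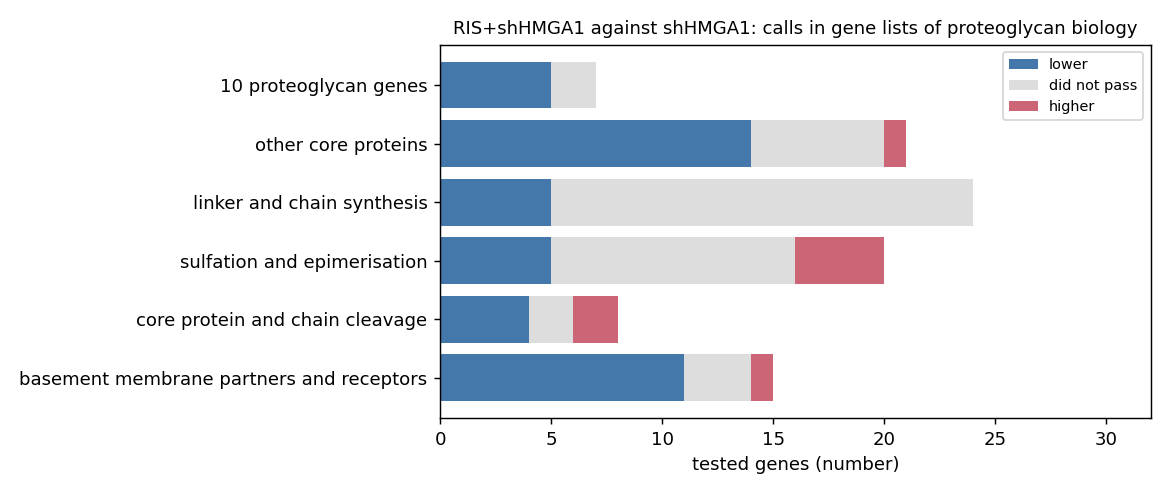
Number of tested genes called lower, not called, or called higher in RIS+shHMGA1 against shHMGA1, for the proteoglycan genes and 5 lists of genes around them. Of the 21 other core proteins 14 were lower, and of the 20 sulfation and epimerisation genes 5 were lower and 4 higher. Of all genes tested, 39.1% were called and 19.5% were lower.

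Under the hairpin fewer genes were called over the whole data (0.27% without 4OHT and 2.55% with it, or 2.59% and 12.5% without both libraries). Without both libraries, 1.39% of all genes were lower without 4OHT, and 2.5% were lower and 10% higher with it. In shHMGA1 against growing none of the 5 lists held a call with all samples, and the counts without both libraries were 2 of 21 other core proteins, 1 of 24 synthesis genes, 2 of 20 sulfation genes and 1 of 8 cleavage genes, all lower, and 0 of 15 basement membrane genes. In RIS+shHMGA1 against RIS, 1 other core protein was called, *SDC2* (syndecan-2, a transmembrane heparan sulfate proteoglycan), higher by 0.92 (SE 0.17, adjusted p = 0.0030), and 1 synthesis gene, *PAPSS2*, which makes the sulfate donor, lower (−0.59, SE 0.11, adjusted p = 0.0036). Without both libraries 4 of 15 basement membrane genes and 3 of 21 other core proteins were lower with the hairpin in RIS cells. So were 2 of 20 sulfation genes, 1 of 24 synthesis genes and 1 of 8 cleavage genes, and 2 other core proteins were higher.

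Some of the fibroblast markers themselves moved with these groups. Their sum is mostly collagen I and *VIM*, and the markers did not vary alike. Over all samples *COL1A1* ranged from 428 to 23307 CPM and *COL1A2* from 300 to 9461 CPM. *VIM* ranged only from 3173.5 to 5703.1 CPM and *PDGFRA* from 87.4 to 210 CPM. The summed level of the 8 markers was 22544 to 40085 CPM in growing (5178 CPM in replicate 4), 13595 to 19722 CPM in shHMGA1, 5744 to 9135 CPM in RIS (26766 CPM in replicate 2) and 4400 to 5828 CPM in RIS+shHMGA1, and in RIS+shHMGA1 against shHMGA1 6 of 8 fell and 1 rose, with *COL3A1* at −4.44 (SE 0.91), *COL1A1* at −3.68 (SE 0.65) and *COL1A2* at −3.38 (SE 0.65). In that comparison all 8 cell cycle genes fell (*MKI67* at −4.33, *TOP2A* at −3.53 and *PLK1* at −3.41) and all 8 inflammatory secretion genes rose (*IL1B* at 4.25, *MMP3* at 3.75 and *IL1A* at 3.69). In RIS+shHMGA1 against RIS *COL1A1* fell by 2.67 (SE 0.63) and *CCL2* rose by 2.67 (SE 0.36), each the single call of its list. The part of these shifts in the proteoglycan levels was not tested.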

How the data were processed

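RNA-seq counts of 24 samples in 4 groups of 6 were used, with group and replicate number from the sample labels. Per the labels, libraries were made with a stranded TruSeq mRNA kit from 6 biological replicates per condition. The authors mapped reads to hg19 with STAR 2.5.0b, filtered a mapping quality under 20 and adapters (cutadapt 1.10.0), and deposited raw counts per Entrez identifier from Rsubread, whose version, annotation and strand setting are not given in the sources used here; reads shared by overlapping genes may therefore have been assigned or dropped by rules not known here. Of 25702 identifiers, 23696 had a symbol in the RefSeq gene table.

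Counts were tested with edgeR 4.0.16 (R 4.3.3, limma 3.58.1): filterByExpr by group left 13356 genes, libraries were TMM-normalised, and group means were fitted to all 24 samples by quasi-likelihood, with Benjamini-Hochberg adjustment over all genes tested. Log2 CPM has a prior count of 2, and SE is the log2 fold change divided by the root of F. Depth was 8698070 to 23103424 counts per sample, and 3 counts equal 0.130 to 0.345 CPM. The script was tested on simulated data. No pair of samples in a group agreed within sampling noise (chi-square per degree of freedom at least 2.76).

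Members and gene lists were chosen with earlier results of these data known. Named were all members, up to 3 called genes per list and contrast with the largest change and an average log2 CPM of at least 2, the 3 genes closest to each tested member, and *HMGA1*. Positions and lengths are from GENCODE on GRCh37, 1-based. The analysis was repeated with DESeq2 1.42.0, RLE normalisation, no filter, at least 1 CPM in 6 samples, the replicate number as a block, samples of the contrast only, and an adjusted p of 0.05. Fits without growing replicate 4, RIS replicate 2, both, or replicate numbers 5 and 6 were added after seeing the data.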

Additional observations from a re-analysis of the deposited data

Results flagged for a closer look

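Within groups of 6, a sample was marked where its gap to the nearest other sample, divided by the range of the group, was above Dixon's critical value at the 95% level. Of 32 ratios tested, over the 7 tested proteoglycan genes and the total count, 6 were above it, and chance gives about 1 in 20. In growing replicate 4 the ratio was 0.843 for *VCAN* (low), 0.747 for *HSPG2* (low) and 0.711 for *FMOD* (low). In RIS replicate 2 it was 0.644 for *HSPG2* (high). The total count gave 0.707 in growing replicate 1 (high) and 0.649 in RIS replicate 3. No proteoglycan gene was marked in shHMGA1 or RIS+shHMGA1. *BGN*, *DCN*, *LUM* and *AGRN* were not marked in any group.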

How the results depend on the processing

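With all samples, 0, 1, 3 and 5 of the 7 tested proteoglycan genes were called for RAS in vector cells (RIS against growing), for the hairpin without 4OHT, for the hairpin with 4OHT and for RAS in hairpin cells. In the first 3 of these, DESeq2 and an adjusted p of 0.05 each gave 2, 2 and 5, leaving out both libraries that stand apart gave 5, 3 and 5, and leaving out replicate numbers 5 and 6 as well gave 6, 5 and 5. Without growing replicate 4 or without RIS replicate 2 the first gave 5, and without growing replicate 4 the third gave 5. Leaving out numbers 5 and 6 but keeping both libraries gave 2 for the hairpin without 4OHT and 0 for RAS in hairpin cells, where 8380 genes had an unadjusted p under 0.05 and the lowest adjusted p of any gene was 0.014; the cause was not tested.

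Over all genes, the main calls of 0, 36, 341, 5220 and (interaction) 0 became 829, 98, 1533, 5536 and 3 with DESeq2, 1537, 85, 2898, 6081 and 2 at an adjusted p of 0.05, and 5331, 348, 1677, 5959 and 1 without both libraries. Without growing replicate 4 they were 3420, 67, 2555, 5777 and 1, and without RIS replicate 2 they were 2579, 47, 141, 5607 and 0. Without numbers 5 and 6 they were 0, 5, 15, 0 and 0, and without those and both libraries 6444, 964, 1404, 6427 and 8. Without the filter they were 0, 23, 189, 5295 and 0, and with the samples of the contrast only 0, 5, 327 and 5762 (not possible for the interaction).

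The replicate numbers share no stated batch. Deviations of same-numbered samples correlated at 0.175 on average over 36 pairs (lowest −0.594, 24 over 0.1). Pairs of different number averaged −0.050 over 180 pairs (57 over 0.1), so same-numbered samples were more alike on average. Of 24 samples, 10 correlated best with their own number. The replicate block gave 1, 36, 1637, 5667 and 0 calls over all genes and 0, 1, 4, 4 and 0 among the proteoglycan genes, where *HSPG2* gained its call in RIS+shHMGA1 against RIS (−1.77, adjusted p = 0.0094) and *DCN* was not called in RIS+shHMGA1 against shHMGA1 (−0.78, adjusted p = 0.017); with the replicate block and without both libraries there were 5246, 484, 1938, 6025 and 2 calls over all genes, and 5, 4 and 5 among the proteoglycan genes in the first 3 comparisons.

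Signs turned in a few fits. *BGN* in RIS against growing was −0.26 with all samples, 0.21 without numbers 5 and 6 and 0.29 without these and both libraries. *FMOD* in shHMGA1 against growing was 0.16 with all samples and 0.15 without RIS replicate 2, but −0.049 without growing replicate 4, −0.054 without both libraries and −0.046 without these and numbers 5 and 6. The interaction of *DCN* was 0.40 with all samples, −0.21 without numbers 5 and 6 and −0.041 without these and both libraries. That of *LUM* was −0.40 with all samples, 0.0058 without both libraries and 0.0059 without numbers 5 and 6 too. That of *HSPG2* was −1.01 with all samples and −0.77 without growing replicate 4, but 0.013 without RIS replicate 2, 0.25 without both libraries, 0.58 without numbers 5 and 6 too and 0.17 with the block and without both libraries. That of *AGRN* was −0.18 with all samples and 0.050, 0.14 and 0.041 in the last 3 of these fits. Depth limits *OGN* and *ASPN*, with at most 2 counts in a sample, and *PRELP*, with 1 to 25.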
